A study of Mus musculus with 8 samples.

Results

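The matrix metalloproteinases (MMPs), the ADAM and ADAMTS proteases and the tissue inhibitors of metalloproteinases (TIMPs) were followed in 8 EMT6 mammary tumours, 4 from mice given GrB-Fc-KS49 and 4 from mice given IgG. The genes were taken by name, as every protein-coding gene of the count table whose symbol is Mmp, Adam, Adamts or Timp followed by a digit. The rule found 62 of 26709 genes, of which 21 were MMPs, 18 ADAMs, 19 ADAMTS genes and 4 TIMPs. A filter on low counts left 49 of them for testing (16 MMPs, 15 ADAMs, 15 ADAMTS genes and 3 TIMPs), among 19718 genes tested in all.

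EMT6 is a mouse mammary carcinoma line, and the tumours grew in syngeneic Balb/c mice whose genotype is labelled wild type. GrB-Fc-KS49 links human granzyme B to a part directed to EMP2, a tetraspan membrane protein. Animals were treated 3 times over 10 days. Ages are not in the labels, nor is the number of mice behind the tumours. A p-value here therefore speaks of the spread among 8 tumours, which may share an animal, and replicate numbers only name libraries. Total counts, in units of 1000000, were 74.6 to 80.9 in GrB-Fc-KS49 libraries and 74.0 to 82.6 in IgG controls. The labels call the material epithelial breast tumour cells, and of the epithelial markers the keratin gene Krt8 was at 391 to 631 CPM over the 8 libraries but Epcam at only 2.73 to 16.02 CPM, while the mesenchymal filament gene Vim was at 4245 to 5137 CPM. CPM are counts per 1000000 of the library total after scaling by the trimmed mean of M-values. Some treated tumours stood apart in markers of host tissue: skin markers summed to 2219 CPM in GrB-Fc-KS49 replicate 2, against 3.27 to 13.3 CPM in the other 7 libraries, and skeletal muscle markers to 2582 CPM in replicate 1, against 44.7 to 410 CPM in the others. In whole tumours fewer cells of a type and less RNA per cell cannot be told apart.

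MMPs are zinc-dependent endopeptidases that are made as inactive precursors and cleave collagens, gelatin, laminins and other matrix proteins once their propeptide is removed. ADAMs are membrane-anchored relatives, several of which shed growth factors, cytokines and receptors from cell surfaces, and ADAMTS proteases are secreted forms that act on proteoglycans, procollagens and other matrix proteins. TIMPs bind the active site of these enzymes and inhibit them, and TIMP2 also takes part in the activation of pro-MMP2 by the membrane-type enzyme MMP14. In tumours these enzymes are made by carcinoma cells, fibroblasts, endothelial cells and leukocytes.

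Few members separated the groups. Adam9 and Adam10, 2 cell-surface sheddases, and Adamts6 were lower in every GrB-Fc-KS49 tumour than in any IgG control, and Adamts13, the protease of von Willebrand factor, was higher in every one at a low level. The major MMPs and TIMPs (Mmp14, Mmp9, Mmp2, Timp1 and Timp2) overlapped between the groups. By edgeR's quasi-likelihood test with Benjamini-Hochberg adjustment over all genes, 0 of 49 members passed an adjusted p under 0.05, as did 0 of all 19718 genes (percent called 0). At an unadjusted p under 0.05 there were 3 members higher (6.12%, against 17.3% of all genes tested) and 4 lower (8.16%, against 17.8%), together 7 of 49 or 14.3%, against 35.1% of all genes. The groups did not overlap in 1 member higher and 3 lower, together 8.16%, against 25.7% of all genes (10.3% higher and 15.3% lower). At an adjusted p under 0.10 the count was 4 of 49 (8.16%), the same 4 genes, against 25.1% of all genes. The median log2 fold change was 0.08 over the 49 members and 0.03 over all genes. Of the genes at an unadjusted p under 0.05, 42.86% of members and 49.23% of all genes were higher. This split moved to 70% and 61.45% under upper quartile scaling and to 57.14% and 33.23% after removal of each library's trends with transcript length and GC content. The member percentages rest on few genes. They were 3 higher and 4 lower, 7 and 3 under upper quartile scaling, and 4 and 3 with the trends removed.

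DESeq2 called 5 members at an adjusted p under 0.05 (Adam9, Adam10, Adamts6, Adamts13 and Mmp25), or 10.2%, against 23.6% of all genes. Limma-voom called 0 members and 1 gene in all (0.00507%), and with sample weights it called 2 members (Adam9 and Adamts13), or 4.08%, against 6.55% of all genes. The count also moved with single treated tumours. With GrB-Fc-KS49 replicate 1 left out edgeR called 1 member (Adam9), and with replicate 4 left out it called 4 (Adam9, Adamts6, Adamts13 and Adamts14), against 6.32% and 17.1% of all genes. At an unadjusted p under 0.05 the higher members numbered 1 without GrB-Fc-KS49 replicate 1 or IgG control replicate 2, 5 when GrB-Fc-KS49 replicate 3 was left out and 7 when replicate 4 was. The lower members numbered 8 without GrB-Fc-KS49 replicate 3 and 2 without IgG control replicates 1 or 4. Shares of all genes at this unadjusted p with a library left out are not given here. These shifts are therefore not read as particular to the members.

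**Figure D1:**
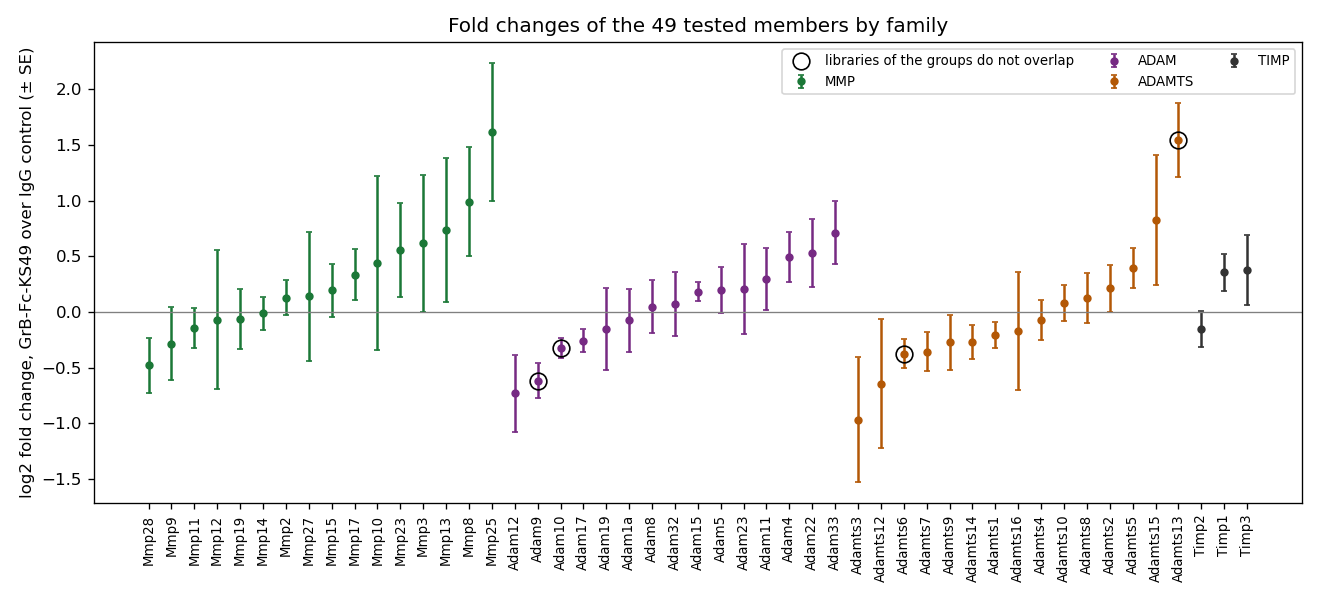
Log2 fold changes of the 49 tested members, GrB-Fc-KS49 over IgG control (y axis), by gene and family (x axis), from edgeR, with bars of ± 1 SE. Circles mark the 4 members whose libraries do not overlap between the groups, Adam9, Adam10 and Adamts6 below 0 and Adamts13 above it.

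Levels of different genes can be set side by side only per length, here as CPM per kilobase of the longest annotated transcript, averaged over the 8 libraries. On that scale the leading transcripts were the inhibitors Timp1 (172) and Timp2 (146) and the membrane-type protease Mmp14 (133), followed by Mmp9 (77.5), Adam8 (48.3), Adam9 (43.9), Adam15 (37.9), Mmp2 (37.6), Adam10 (26.8) and Adam17 (19.5). The ADAMTS family came lower, led by Adamts4 (16.5), Adamts1 (13.8) and Adamts14 (10.1). Each neighbouring pair in this order of 62 genes overlapped in the range over the libraries, so the order of neighbours is not beyond the spread. The 4 TIMPs summed to 369, 321, 371 and 303 CPM per kilobase across GrB-Fc-KS49 replicates 1 to 4, against 353, 346, 269.5 and 279 CPM per kilobase across IgG control replicates 1 to 4. The 21 MMPs summed to 273, 295, 366 and 303 CPM per kilobase across GrB-Fc-KS49 replicates 1 to 4, against 298, 349.7, 334 and 279 CPM per kilobase across IgG control replicates 1 to 4. The ratio of the TIMP sum to the MMP sum was 1.35, 1.09, 1.01 and 1.002 across GrB-Fc-KS49 replicates 1 to 4, against 1.18, 0.989, 0.807 and 0.998 across IgG control replicates 1 to 4, and these ranges overlapped.

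Of the 4 families only the ADAMs had summed CPM that did not overlap between the groups. The ADAM sum was 662, 750.2, 675 and 768 CPM across GrB-Fc-KS49 replicates 1 to 4, against 919, 906, 835 and 813 CPM across IgG control replicates 1 to 4. Per kilobase the ADAM sums were 162 to 192 in GrB-Fc-KS49 tumours and 199.4 to 219 in controls. The MMP sum was 860.1, 922, 1135 and 910.4 CPM across GrB-Fc-KS49 replicates 1 to 4, against 941, 1092, 1050.5 and 863 CPM across IgG control replicates 1 to 4, the ranges overlapping. The ADAMTS sum was 356 ± 51.2 CPM with GrB-Fc-KS49 and 388 ± 41.5 CPM with IgG (SD, n = 4 each). A sum of CPM is weighted towards long and abundant transcripts, here Adam9, Adam8, Adam10, Adam12, Adam15 and Adam17 for the ADAMs. It does not describe the family gene by gene, as 9 of 15 tested ADAMs (60%) had higher treated means, against 53.2% of all genes. Single ADAMs whose groups did not overlap were Adam9 and Adam10 (2 of 15, or 13.3%, against 25.7% of all genes).

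**Figure D2:**
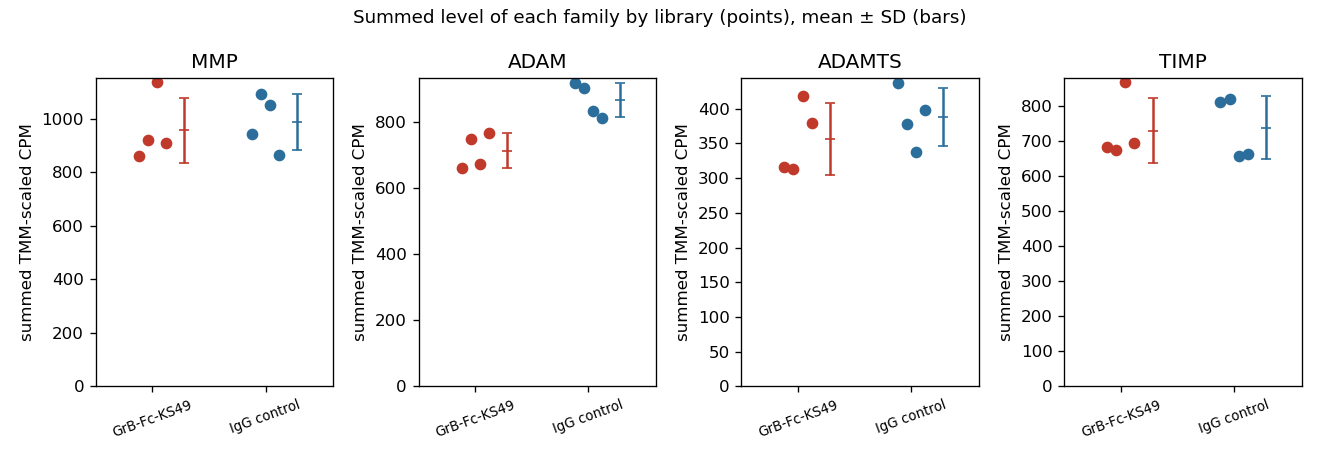
Summed TMM-scaled CPM (y axis) of all members of each family in GrB-Fc-KS49 and IgG control tumours. Points are libraries and bars are mean ± SD. The ADAM sums are 662 to 768 CPM in GrB-Fc-KS49 tumours and 813 to 919 CPM in IgG controls.

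Among the inhibitors, Timp1, a secreted TIMP that binds most MMPs (ENSMUSG00000001131, chromosome X, 20736405 to 20740974, plus strand, GRCm39, as all coordinates of genes here), was at 219.97, 164, 161 and 137 CPM across GrB-Fc-KS49 replicates 1 to 4, against 158, 148, 109 and 118 CPM across IgG control replicates 1 to 4. GrB-Fc-KS49 replicates 1, 2 and 3 were above all controls and replicate 4 lay among them. The log2 fold change was 0.36 (SE 0.17, adjusted p = 0.167) by edgeR, and 0.21 without GrB-Fc-KS49 replicate 1. Over the alternatives the adjusted p of Timp1 ranged from 0.0942 to 0.683. The median log2 fold change of the 3 tested TIMPs was 0.36, and 0.09 with the length and GC trends removed. Timp2, which inhibits MMPs and helps MMP14 to activate pro-MMP2 (ENSMUSG00000017466, chromosome 11, 118191895 to 118246566, minus strand), was at 383, 468, 675 and 522 CPM across GrB-Fc-KS49 replicates 1 to 4, against 608, 630.5, 519 and 516 CPM across IgG control replicates 1 to 4. GrB-Fc-KS49 replicate 3 was the highest of all 8 and replicate 1 the lowest, and the groups overlapped. Between the groups its log2 fold change was -0.15 (SE 0.16, adjusted p = 0.531) by edgeR, and -0.31 without GrB-Fc-KS49 replicate 3. Leaving out GrB-Fc-KS49 replicate 1 instead gave -0.04. Timp3, the matrix-bound TIMP that also inhibits ADAM17 (ENSMUSG00000020044, chromosome 10, 86136236 to 86185370, plus strand), was at 78.3, 40.9, 29.4 and 34.5 CPM across GrB-Fc-KS49 replicates 1 to 4, against 44.4, 39.5, 28.3 and 28.8 CPM across IgG control replicates 1 to 4. One treated tumour, replicate 1, stood above all others, and without it the log2 fold change was -0.02 in place of 0.38 (SE 0.31). Summed markers of fibroblasts were also highest in that tumour, at 1301, 661, 503 and 395 CPM across GrB-Fc-KS49 replicates 1 to 4, against 454, 381, 408 and 359 CPM across IgG control replicates 1 to 4, with 8 of 10 tested markers higher in the treated mean. Their part in the Timp3 value was not tested. Timp4 was below the low-count filter, with at most 75 counts, or 0.892 CPM, in GrB-Fc-KS49 replicate 3.

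Among the MMPs, of the gelatinases, which cleave denatured collagen and type IV collagen, Mmp2 (ENSMUSG00000031740, chromosome 8, 93553919 to 93580048, plus strand) was at 116, 120.5, 152 and 94.6 CPM across GrB-Fc-KS49 replicates 1 to 4, against 136, 96.6, 101 and 109 CPM across IgG control replicates 1 to 4. The groups overlapped, with GrB-Fc-KS49 replicate 3 highest among treated tumours and IgG control replicate 1 highest among controls. That gave a log2 fold change of 0.13 (SE 0.16, adjusted p = 0.585) by edgeR. Mmp9 (ENSMUSG00000017737, chromosome 2, 164782700 to 164797770, plus strand) was at 253, 177, 289.99 and 167 CPM across GrB-Fc-KS49 replicates 1 to 4, against 213, 368, 362 and 138 CPM across IgG control replicates 1 to 4. IgG control replicates 2 and 3 were the highest of all libraries and replicate 4 the lowest, and the log2 fold change was -0.29 (SE 0.33, adjusted p = 0.555) by edgeR. Single libraries moved it, to -0.10 without IgG control replicate 2 and to -0.49 without IgG control replicate 4.

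Of the 6 membrane-type enzymes 4 were tested. Mmp14, which cleaves interstitial collagen at the cell surface and activates pro-MMP2 (ENSMUSG00000000957, chromosome 14, 54669069 to 54682821, plus strand), was at 332, 392.2, 551 and 436 CPM across GrB-Fc-KS49 replicates 1 to 4, against 434, 461, 385 and 447 CPM across IgG control replicates 1 to 4. The means were 428 ± 92.6 CPM with GrB-Fc-KS49 and 432 ± 33.0 CPM with IgG (SD, n = 4 each), and the log2 fold change of -0.01 (SE 0.15) turned to 0.05 under upper quartile scaling. The ratio of Timp2 to Mmp14, per length, was 1.01, 1.04, 1.07 and 1.04 across GrB-Fc-KS49 replicates 1 to 4, against 1.22, 1.19, 1.18 and 1.01 across IgG control replicates 1 to 4, with IgG control replicate 4 inside the treated range. Mmp15, another membrane-type enzyme, was at 10.4 CPM with GrB-Fc-KS49 and 9.09 CPM with IgG. Mmp17, which is anchored by a glycolipid, was at 0.601, 0.399, 0.476 and 0.41 CPM across GrB-Fc-KS49 replicates 1 to 4, against 0.375, 0.395, 0.29 and 0.434 CPM across IgG control replicates 1 to 4. IgG control replicate 4 lay inside the treated range, and the log2 fold change was 0.33 (SE 0.23, adjusted p = 0.32) by edgeR, and 0.20 without GrB-Fc-KS49 replicate 1. Mmp16 and Mmp24 were below the filter, reaching at most 0.242 and 0.0501 CPM in a library.

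Mmp25, the glycolipid-anchored enzyme first known from leukocytes (ENSMUSG00000023903, chromosome 17, 23847285 to 23864251, minus strand), had the largest log2 fold change of the 49 tested members. It was at 6.50, 5.13, 0.821 and 1.44 CPM across GrB-Fc-KS49 replicates 1 to 4, against 0.798, 1.11, 1.49 and 1.13 CPM across IgG control replicates 1 to 4. GrB-Fc-KS49 replicates 1 and 2 were high, while replicates 3 and 4 lay within the control range. The fitted log2 fold change was 1.62 (SE 0.62, adjusted p = 0.107) by edgeR, 1.12 without GrB-Fc-KS49 replicate 1. DESeq2 gave an adjusted p of 0.0286, in a range of 0.0286 to 0.279 over the alternatives. Mmp8, the neutrophil collagenase (ENSMUSG00000005800, chromosome 9, 7558457 to 7568486, plus strand), was high in the same pair of tumours, at 2.74, 2.25, 0.654 and 0.634 CPM across GrB-Fc-KS49 replicates 1 to 4, against 0.665, 0.91, 0.842 and 0.744 CPM across IgG control replicates 1 to 4. Again only GrB-Fc-KS49 replicates 1 and 2 exceeded the controls, and its log2 fold change was 0.99 (SE 0.49, adjusted p = 0.181) by edgeR, 0.57 without GrB-Fc-KS49 replicate 1.

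Summed neutrophil markers were highest in the same pair of tumours, at 74.8, 142, 23.9 and 52.6 CPM across GrB-Fc-KS49 replicates 1 to 4, against 54.1, 30.9, 29.3 and 23.2 CPM across IgG control replicates 1 to 4. Of 10 neutrophil markers 9 were measured and 5 tested, all 5 higher in the treated mean, while the neutrophil genes Ly6g, Camp and Ngp had a count of 0 in at least 1 library. Summed T cell markers were at 64.1, 36.5, 6.42 and 18.9 CPM across GrB-Fc-KS49 replicates 1 to 4, against 2.55, 7.66, 8.20 and 7.07 CPM across IgG control replicates 1 to 4. All 10 T cell markers had higher treated means, and GrB-Fc-KS49 replicates 1 and 2 led there too. What these cells add to Mmp8 and Mmp25 was not tested.

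Of the MMP genes in the count table, 8 lie in a cluster on chromosome 9, from 7272514 to 7699586, over 427 kb. In this order they are Mmp13, Mmp12, Mmp1b, Mmp3, Mmp10, Mmp8, Mmp27 and Mmp7, of which 6 were tested. The count table holds only genes with a total of at least 10, so the cluster may contain further genes. Members of this cluster are textbook targets of AP-1, the dimer of FOS and JUN family proteins, and their promoters are printed because tumours of the same group differed widely in several of these genes. Promoter windows (250 bases before to 50 after a RefSeq start, GRCm38.p6, not the build of the count table) were found for 39 of the 62 genes, 44 windows in all. The AP-1 element TGAGTCA, searched on both strands, was in 7 of these 44 windows, against 5.2% of 32851 windows of the same length over all genes. Those windows belong to 7 members, 6 of them in the cluster (Mmp13, Mmp12, Mmp1b, Mmp3, Mmp10 and Mmp7) and the other being Adam19. The TATA motif TATAAA was in 9 of the 44 windows, against 13.6% of all windows. These belong to 9 members, 7 of them in the cluster. The TATA motif shares no base with the AP-1 motif where both were found. The first base of the AP-1 element was the base 35, 44, 46 and 63 before the start in Mmp13, Mmp12, Mmp3 and Mmp10. The 120 bases before the RefSeq start are given for these 4 genes and for Mmp8, a tested gene of the cluster without an AP-1 match, all on the plus strand, 5′ to 3′, with AP-1 and TATA matches in capitals. For Mmp12, with 2 RefSeq starts, the one further along the gene is shown, since the other window holds no AP-1 match. The TATA match of Mmp12 lies after the start and that of Mmp8 runs across it, so neither is in the printed stretch.
Mmp13 chr9:7272394-7272513: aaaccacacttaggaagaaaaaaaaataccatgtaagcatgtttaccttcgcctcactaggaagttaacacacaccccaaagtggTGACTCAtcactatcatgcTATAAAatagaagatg
Mmp12 chr9:7347254-7347373: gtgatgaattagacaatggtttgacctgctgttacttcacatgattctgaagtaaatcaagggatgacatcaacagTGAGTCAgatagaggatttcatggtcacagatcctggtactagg
Mmp3 chr9:7445702-7445821: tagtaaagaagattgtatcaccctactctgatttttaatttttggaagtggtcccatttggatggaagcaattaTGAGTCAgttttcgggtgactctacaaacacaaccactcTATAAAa
Mmp10 chr9:7502222-7502341: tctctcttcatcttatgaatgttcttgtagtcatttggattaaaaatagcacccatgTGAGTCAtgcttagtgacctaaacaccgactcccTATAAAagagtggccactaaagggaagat
Mmp8 chr9:7558309-7558428: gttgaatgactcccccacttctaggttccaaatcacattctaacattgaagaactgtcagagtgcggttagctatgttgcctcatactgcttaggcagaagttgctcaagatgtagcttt

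A match is only a description of the letters in a window and does not show binding. Mmp3, or stromelysin 1, which cleaves proteoglycans and activates other pro-MMPs (chromosome 9, 7445822 to 7455975, plus strand), was at 6.82, 15.6, 25.9 and 54.2 CPM across GrB-Fc-KS49 replicates 1 to 4, against 7.05, 20.8, 13.3 and 25.7 CPM across IgG control replicates 1 to 4. The treated tumours ranged from the lowest to the highest value of all 8. Its log2 fold change was 0.62 (SE 0.62, adjusted p = 0.495) by edgeR, and -0.06 without GrB-Fc-KS49 replicate 4. Mmp10, or stromelysin 2, its neighbour in the cluster (chromosome 9, 7502353 to 7510241, plus strand), was at 0.651, 2.81, 0.833 and 7.92 CPM across GrB-Fc-KS49 replicates 1 to 4, against 0.907, 3.51, 2.07 and 2.52 CPM across IgG control replicates 1 to 4. In both stromelysins GrB-Fc-KS49 replicate 4 was the highest library of all and replicate 1 the lowest, with IgG control replicate 1 the lowest control.

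Mmp13, the rodent interstitial collagenase (chromosome 9, 7272514 to 7283331, plus strand), was at 15.95, 37.2, 2.81 and 32.0 CPM across GrB-Fc-KS49 replicates 1 to 4, against 7.79, 15.2, 18.2 and 11.6 CPM across IgG control replicates 1 to 4. GrB-Fc-KS49 replicates 2 and 4 were above all controls and replicate 3 was below them. The log2 fold change was 0.74 (SE 0.65, adjusted p = 0.439) by edgeR, 1.10 when GrB-Fc-KS49 replicate 3 was left out and 0.37 when replicate 2 was. Mmp12, the macrophage elastase (chromosome 9, 7344381 to 7369499, plus strand), was at 55.3, 87.7, 6.75 and 44.9 CPM across GrB-Fc-KS49 replicates 1 to 4, against 37.1, 51.8, 79.7 and 35.5 CPM across IgG control replicates 1 to 4. GrB-Fc-KS49 replicate 3 was again far below every other tumour, so that the log2 fold change was -0.07 (SE 0.62) with it and 0.29 without it. Summed macrophage markers did not follow this order, at 3302, 2652, 1977 and 1509 CPM across GrB-Fc-KS49 replicates 1 to 4, against 1186, 1516, 1173 and 1274 CPM across IgG control replicates 1 to 4, with 9 of 10 markers higher in the treated mean. Mmp27 was at 0.236 CPM with GrB-Fc-KS49 and 0.215 CPM with IgG, and Mmp7 and Mmp1b were below the filter at 0.264 and 0.0666 CPM in their highest library, as was Mmp21 outside the cluster at 0.0533 CPM.

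Of the other MMPs, Mmp11, or stromelysin 3, a stromal enzyme, averaged 26.6 CPM with GrB-Fc-KS49 and 29.3 CPM with IgG, and Mmp19 averaged 24.9 CPM with GrB-Fc-KS49 and 26.1 CPM with IgG. Mmp28, or epilysin (chromosome 11, 83331594 to 83353897, minus strand), was at 10.99, 20.8, 12.3 and 15.2 CPM across GrB-Fc-KS49 replicates 1 to 4, against 19.4, 13.6, 24.7 and 25.0 CPM across IgG control replicates 1 to 4. IgG control replicates 1 and 2 lay inside the treated range and the other 2 controls above it, and the log2 fold change was -0.48 (SE 0.25, adjusted p = 0.195) by edgeR. Mmp23 was at 5.97, 2.76, 6.26 and 2.37 CPM across GrB-Fc-KS49 replicates 1 to 4, against 5.07, 2.61, 1.86 and 2.26 CPM across IgG control replicates 1 to 4, with 2 treated tumours, replicates 1 and 3, above all controls and a log2 fold change of 0.56 (SE 0.42, adjusted p = 0.363) by edgeR. It was 0.32 without GrB-Fc-KS49 replicate 3, 0.97 without IgG control replicate 1 and 0.23 with the length and GC trends removed. In all, 10 of the 16 tested MMPs had higher treated means, as did 27 of all 49 members (55.1%) and 53.2% of all genes. Of the MMPs 1 had an unadjusted p under 0.05 by edgeR, against 35.1% of all genes, and 0 separated the groups, against 25.7%.

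**Figure D3:**
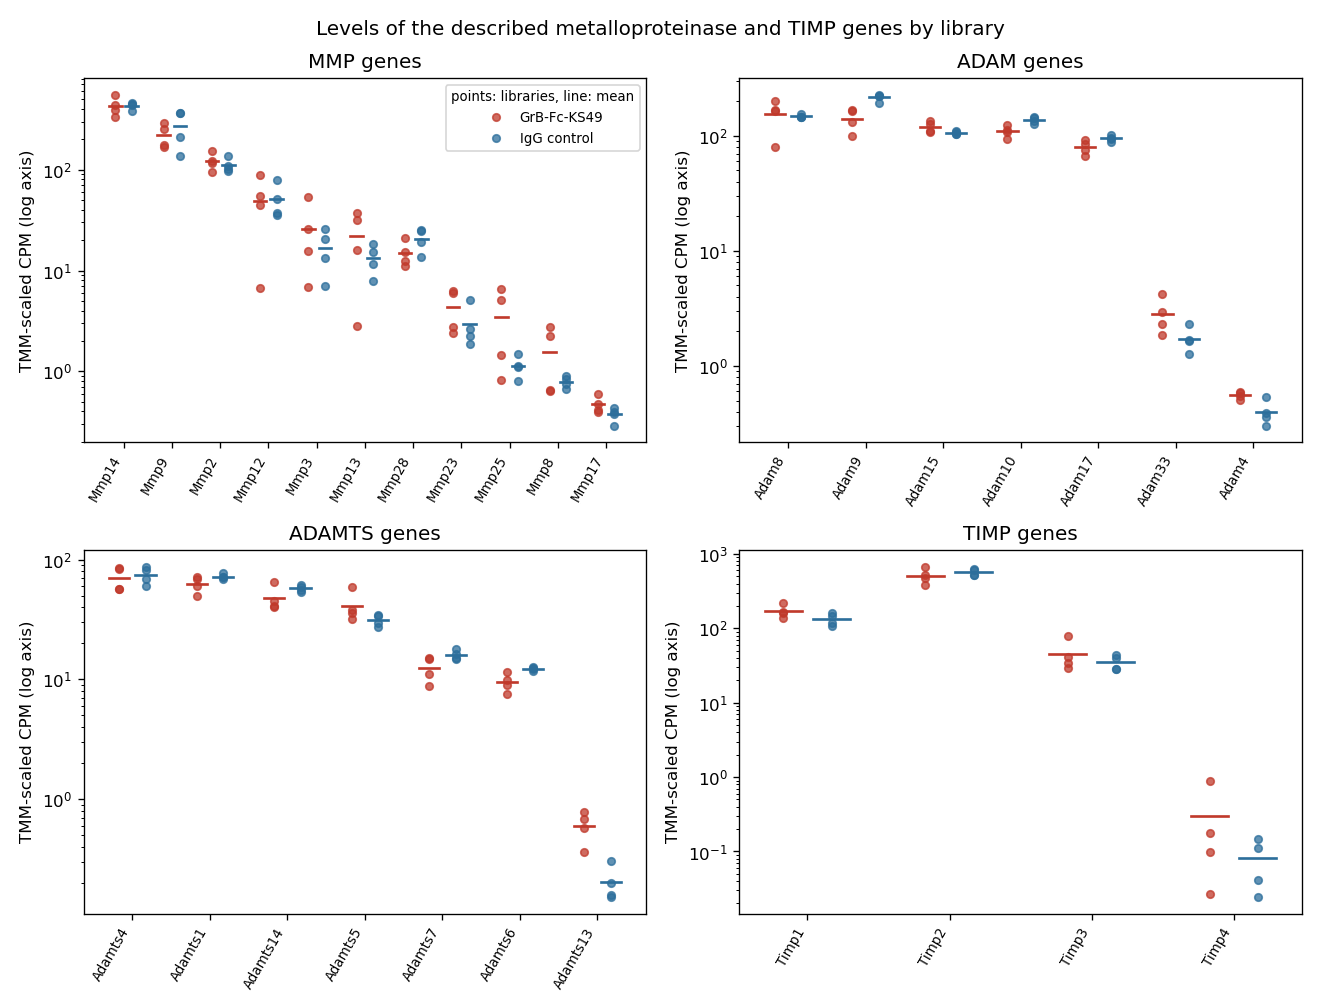
TMM-scaled CPM on a log axis (y axis) of 29 members chosen by rule for values by library (x axis), in 1 panel for each family, ordered by mean level per length. Points are libraries, with GrB-Fc-KS49 left of IgG control for each gene, and lines are group means. The 2 groups separate for Adam9, Adam10, Adamts6 and Adamts13.

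Among the ADAMs, 8 catalytic enzymes of somatic tissue were tested, of which 3 were lower and 1 higher at an unadjusted p under 0.05, where 17.8% of all genes were lower and 17.3% higher. Adam9, a sheddase that can release EGF-family ligands (ENSMUSG00000031555, chromosome 8, 25439627 to 25506943, minus strand), was at 98.7, 163, 133 and 167 CPM across GrB-Fc-KS49 replicates 1 to 4, against 226, 221, 221 and 193 CPM across IgG control replicates 1 to 4. The highest treated tumour was below the lowest control, and replicate 1 was the lowest of all. Between the groups its log2 fold change was -0.62 (SE 0.16, adjusted p = 0.0619) by edgeR, between -0.71 and -0.48 with any 1 tumour left out. The adjusted p was 0.0400 with GrB-Fc-KS49 replicate 1 left out, 0.0338 with replicate 4 left out, 0.00752 by DESeq2 and 0.0458 by limma-voom with sample weights, in a range of 0.00752 to 0.163 over the alternatives.

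Adam10, the sheddase that makes the first membrane-near cut of Notch receptors and cleaves E-cadherin and CD44 (ENSMUSG00000054693, chromosome 9, 70586279 to 70687511, plus strand), was at 93.7, 123, 109 and 112 CPM across GrB-Fc-KS49 replicates 1 to 4, against 141, 145, 136 and 125 CPM across IgG control replicates 1 to 4. The margin between the groups was narrow, with GrB-Fc-KS49 replicate 2 just under IgG control replicate 4. That gave a log2 fold change of -0.32 (SE 0.09, adjusted p = 0.065) by edgeR, and DESeq2 gave an adjusted p of 0.0204, in a range of 0.0204 to 0.176 over the alternatives. Adam17, or TACE, which releases TNF and EGF receptor ligands (ENSMUSG00000052593, chromosome 12, 21373510 to 21423633, minus strand), was at 74.8, 92.5, 66.4 and 84.5 CPM across GrB-Fc-KS49 replicates 1 to 4, against 88.2, 96.1, 102 and 94.0 CPM across IgG control replicates 1 to 4. Only GrB-Fc-KS49 replicate 2 reached into the control range, and the log2 fold change was -0.26 (SE 0.11, adjusted p = 0.127) by edgeR. With the length and GC trends removed the log2 fold changes of Adam9, Adam10 and Adam17 were -0.55, -0.21 and -0.15, and the groups overlapped for Adam10. Summed T cell markers, given above, were higher in the treated mean, and macrophage markers were higher than every control in all treated tumours but replicate 4. Summed mesenchymal tumour markers were at 7073 to 9170 CPM in GrB-Fc-KS49 tumours and 9230 to 9777 CPM in controls. That sum includes Fn1, which was itself apart, at 1560 to 3289 CPM in GrB-Fc-KS49 tumours and 3707 to 3959 CPM in controls. Vim, also in the sum, overlapped between the groups, at 4245 to 5049 CPM with GrB-Fc-KS49 and 4659 to 5137 CPM with IgG. The sum therefore does not speak for each marker. Of the 7 mesenchymal tumour markers 1, S100a4, was higher in the treated mean. The part of any of these cells in the ADAM values was not tested.

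Adam12, expressed in stroma and in many carcinomas (chromosome 7, 133484928 to 133833875, minus strand), was lower in the treated mean, at 39.5, 70.3, 124 and 111 CPM across GrB-Fc-KS49 replicates 1 to 4, against 175, 170.6, 102 and 125 CPM across IgG control replicates 1 to 4. GrB-Fc-KS49 replicates 1 and 2 were below all controls, while replicates 3 and 4 lay among them, and its log2 fold change was -0.73 (SE 0.35, adjusted p = 0.167) by edgeR. Adam15 (ENSMUSG00000028041, chromosome 3, 89245849 to 89257303, minus strand), an ADAM with an integrin-binding motif in human, went the other way at 134, 111, 127 and 107 CPM across GrB-Fc-KS49 replicates 1 to 4, against 109, 103, 103 and 108 CPM across IgG control replicates 1 to 4. GrB-Fc-KS49 replicates 1, 2 and 3 were above all controls and replicate 4 among them. Its log2 fold change of 0.18 (SE 0.08, adjusted p = 0.157) by edgeR was 0.01 with the length and GC trends removed. Adam8, an ADAM of leukocytes and of tumour cells (chromosome 7, 139558845 to 139572475, minus strand), was at 201, 168, 79.1 and 164 CPM across GrB-Fc-KS49 replicates 1 to 4, against 146, 146, 155 and 145 CPM across IgG control replicates 1 to 4. Its controls were close together, GrB-Fc-KS49 replicate 3 lay far below them and the other 3 treated tumours above, with a log2 fold change of 0.05 (SE 0.24) over all tumours and 0.26 without that replicate. Adam33, an ADAM of mesenchymal cells (chromosome 2, 130892511 to 130905734, minus strand), was at 4.22, 1.85, 2.96 and 2.31 CPM across GrB-Fc-KS49 replicates 1 to 4, against 1.63, 1.28, 1.70 and 2.31 CPM across IgG control replicates 1 to 4. IgG control replicate 4 lay inside the treated range, and its log2 fold change was 0.71 (SE 0.29, adjusted p = 0.118) by edgeR, and 0.46 without GrB-Fc-KS49 replicate 1. Adam19 averaged 15.0 CPM with GrB-Fc-KS49 and 16.7 CPM with IgG.

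The 3 non-catalytic ADAMs known from the nervous system were low, with Adam22 at 2.41 CPM with GrB-Fc-KS49 and 1.67 CPM with IgG, Adam23 at 1.83 CPM with GrB-Fc-KS49 and 1.59 CPM with IgG and Adam11 at 0.828 CPM with GrB-Fc-KS49 and 0.674 CPM with IgG. The ADAMs known from the germ line and epididymis were also low, with Adam5, Adam1a, Adam4 and Adam32 tested and Adam3, Adam21 and Adam30 below the filter at no more than 0.125, 0.145 and 0.0868 CPM. The tested ones averaged 0.813, 0.847 and 0.282 CPM in GrB-Fc-KS49 tumours for Adam5, Adam1a and Adam32, and 0.709, 0.891 and 0.268 CPM in controls. Adam4 was at 0.551, 0.599, 0.583 and 0.51 CPM across GrB-Fc-KS49 replicates 1 to 4, against 0.363, 0.303, 0.386 and 0.533 CPM across IgG control replicates 1 to 4, overlapping through IgG control replicate 4, with a log2 fold change of 0.50 (SE 0.22, adjusted p = 0.151) by edgeR. It shares its place and strand with Cox16, at 26.2 CPM on average, so its count depends on how such reads were divided.

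Among the ADAMTS proteases, Adamts13, which cuts von Willebrand factor (ENSMUSG00000014852, chromosome 2, 26863428 to 26899640, plus strand), had the smallest unadjusted p of all members. It was at 0.776, 0.679, 0.571 and 0.361 CPM across GrB-Fc-KS49 replicates 1 to 4, against 0.302, 0.158, 0.152 and 0.198 CPM across IgG control replicates 1 to 4. Every treated tumour was above every control, but the counts were low, at 62, 51, 48 and 29 in GrB-Fc-KS49 replicates 1 to 4, against 25, 12, 11 and 16 in IgG control replicates 1 to 4. The fitted log2 fold change was 1.55 (SE 0.33, adjusted p = 0.0619) by edgeR, between 1.39 and 1.82 with any 1 tumour left out, and 1.51 with the length and GC trends removed. It was called without GrB-Fc-KS49 replicate 4 (adjusted p = 0.0244 by edgeR), by DESeq2 (0.00448) and by limma-voom with sample weights (0.0458), in a range of 0.00448 to 0.162 over the alternatives. Summed endothelial markers overlapped between the groups, at 268, 228, 354 and 236 CPM across GrB-Fc-KS49 replicates 1 to 4, against 317, 239, 169 and 237 CPM across IgG control replicates 1 to 4, with 8 of 10 higher in the treated mean. Their part in the Adamts13 value was not tested.

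Adamts6 (ENSMUSG00000046169, chromosome 13, 104424343 to 104633203, plus strand), whose known substrates lie in the microfibril and cell-surface matrix, was at 7.56, 9.80, 9.04 and 11.5 CPM across GrB-Fc-KS49 replicates 1 to 4, against 12.5, 11.7, 12.3 and 12.8 CPM across IgG control replicates 1 to 4. The gap between the groups was smaller than the range of either. The groups overlapped under upper quartile scaling, with a filter at CPM 1, with no low-count filter and on log2(CPM + 1) or log2(CPM + 0.25). They also overlapped among genes with a known length, with or without the length and GC trends removed. The same held without GrB-Fc-KS49 replicate 2, IgG control replicate 1 or IgG control replicate 4. Its log2 fold change was -0.38 (SE 0.13, adjusted p = 0.0858) by edgeR, -0.49 with an adjusted p of 0.0352 without GrB-Fc-KS49 replicate 4, and -0.18 with the length and GC trends removed. DESeq2 gave an adjusted p of 0.0444, and the range over the alternatives was 0.0352 to 0.301.

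Of the proteoglycan-cleaving ADAMTS enzymes, which cut aggrecan or versican, 0 of 6 tested genes separated the groups, against 25.7% of all genes. So few genes do not set this subgroup apart from that share. Adamts5 (chromosome 16, 85653061 to 85698716, minus strand) was at 58.5, 38.2, 36.1 and 32.1 CPM across GrB-Fc-KS49 replicates 1 to 4, against 27.2, 33.9, 34.7 and 29.6 CPM across IgG control replicates 1 to 4. Its treated replicates 1, 2 and 3 were above all controls and replicate 4 among them, with a log2 fold change of 0.40 (SE 0.18, adjusted p = 0.16) by edgeR that was 0.18 without GrB-Fc-KS49 replicate 1. Adamts1 was at 72.0, 68.7, 49.3 and 60.5 CPM across GrB-Fc-KS49 replicates 1 to 4, against 71.0, 68.3, 76.9 and 72.1 CPM across IgG control replicates 1 to 4, with GrB-Fc-KS49 replicates 3 and 4 below all controls and a log2 fold change of -0.20 (SE 0.12, adjusted p = 0.237) by edgeR that was -0.11 without GrB-Fc-KS49 replicate 3. Adamts4 was at 56.5, 57.1, 85.8 and 83.7 CPM across GrB-Fc-KS49 replicates 1 to 4, against 81.7, 68.7, 60.4 and 87.2 CPM across IgG control replicates 1 to 4. Its groups overlapped through most of their range, with a log2 fold change of -0.07 (SE 0.18, adjusted p = 0.79) by edgeR. Adamts9, Adamts15 and Adamts8 averaged 21.7, 7.13 and 0.417 CPM in GrB-Fc-KS49 tumours and 26.2, 4.02 and 0.383 CPM in controls.

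Of the procollagen N-proteinases, which trim fibrillar procollagens, Adamts14 (chromosome 10, 61032891 to 61109217, minus strand) was at 44.7, 39.8, 40.9 and 65.0 CPM across GrB-Fc-KS49 replicates 1 to 4, against 61.5, 55.8, 53.4 and 58.9 CPM across IgG control replicates 1 to 4. GrB-Fc-KS49 replicates 1, 2 and 3 were below all controls and replicate 4 above all of them. The log2 fold change was -0.27 (SE 0.15, adjusted p = 0.235) by edgeR, and without replicate 4 it was -0.46 with an adjusted p of 0.0235, in a range of 0.0235 to 0.541 over the alternatives. Adamts2 averaged 39.3 CPM with GrB-Fc-KS49 and 33.9 CPM with IgG, and Adamts3 was near the filter at 0.0863 CPM with GrB-Fc-KS49 and 0.171 CPM with IgG. Adamts7 and Adamts12, which cleave cartilage oligomeric matrix protein, had lower treated means. Adamts7 was at 8.78, 11.1, 15.1 and 14.9 CPM across GrB-Fc-KS49 replicates 1 to 4, against 17.8, 15.1, 14.7 and 16.4 CPM across IgG control replicates 1 to 4, with a log2 fold change of -0.36 (SE 0.17, adjusted p = 0.176) by edgeR, -0.22 without GrB-Fc-KS49 replicate 1. The groups overlapped through GrB-Fc-KS49 replicates 3 and 4, and Tbc1d2b overlaps it on the other strand. Adamts12 averaged 29.9 ± 22.3 CPM with GrB-Fc-KS49 and 46.8 ± 18.1 CPM with IgG (SD, n = 4 each). Adamts10 and Adamts16 averaged 11.8 and 0.996 CPM with GrB-Fc-KS49 and 11.2 and 1.12 CPM with IgG, and Adamts17, Adamts18, Adamts19 and Adamts20 were below the filter at no more than 0.181, 0.133, 0.297 and 0.178 CPM.

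Treated tumours spread more than controls in most members, as they did in most genes. The coefficient of variation was larger among GrB-Fc-KS49 than among IgG control libraries in 41 of 49 members (83.7%), against 78.9% of all genes tested, and its median over members was 29.4% in GrB-Fc-KS49 tumours and 20.8% in controls, against 18.7% and 10.2% over all genes.

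Another order of the libraries ran across both groups. The titles of GrB-Fc-KS49 replicate 3 and IgG control replicate 1 end in U, with no key to that suffix in the sources used here. Among the 4 treated tumours the U library was the highest in 23 of 49 members (46.9%, against 24.5% of all genes), and among the 4 controls in 22 of 49 (44.9%, against 23.1%). Both were the highest of their group in 15 members (30.6%), against 9.38% of all genes, and both the lowest in 3 members (6.12%), against 12.7%. The 15 were Mmp2, Mmp15, Mmp19, Mmp23, Adam5, Adam12, Adam19, Adam23, Adamts2, Adamts3, Adamts7, Adamts9, Adamts12, Adamts15 and Adamts16. The 3 were Mmp13, Mmp25 and Adam17. The ADAMTS proteases made up 7 of the 15, out of 15 tested in that family. This count was made after the values were seen.

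With the suffix and the treatment in 1 edgeR model, the suffix term had an unadjusted p under 0.05 in 13 members higher with U (26.5%, against 4.78% of all genes) and 2 lower (4.08%, against 5.85%). By adjusted p under 0.05 it called 0 members and 1 gene in all (percent called 0.00507). Mmp19, which had the smallest p of this term among members, was at 25.6, 21.1, 35.7 and 17.5 CPM across GrB-Fc-KS49 replicates 1 to 4, against 39.1, 21.4, 22.2 and 21.8 CPM across IgG control replicates 1 to 4. The U library was the highest in each group, and the suffix term was 0.79 (SE 0.13, unadjusted p = 0.000244) on the log2 scale. Tmem198b overlaps Mmp19 on the other strand at 37.8 CPM on average. Adamts2 was at 29.4, 37.4, 55.8 and 34.8 CPM across GrB-Fc-KS49 replicates 1 to 4, against 43.8, 32.5, 27.9 and 31.5 CPM across IgG control replicates 1 to 4, with a suffix term of 0.62 (SE 0.11, unadjusted p = 0.000511). Adam19, an ADAM that cleaves neuregulin, was at 9.22, 10.9, 25.5 and 14.5 CPM across GrB-Fc-KS49 replicates 1 to 4, against 25.1, 17.3, 9.98 and 14.4 CPM across IgG control replicates 1 to 4, with a suffix term of 0.9995 (SE 0.22, unadjusted p = 0.00179). Adamts15 reached 17.6 CPM in the treated U library, against 2.88 to 4.47 CPM in the other treated tumours, and 5.34 CPM in the control U library, against 2.47 to 4.30 CPM in the other controls. These 4 genes were chosen after their values were seen.

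Summed endothelial markers, given above, were highest in the U library of each group, and so was the sum of 15 matrix genes cleaved by the family, at 11628, 14456, 24008 and 19535 CPM across GrB-Fc-KS49 replicates 1 to 4, against 23267, 21458, 16376 and 19305 CPM across IgG control replicates 1 to 4. This did not hold for each gene of that sum. Fn1, which encodes fibronectin, was highest among treated tumours in replicate 4, with 3289 CPM against 2528 CPM in the U library. Summed fibroblast markers were highest in the U library among controls but not among treated tumours, and summed adipocyte markers were highest in the treated U library and lowest in the control one, at 162, 79.1, 506 and 84.2 CPM across GrB-Fc-KS49 replicates 1 to 4, against 53.0, 81.8, 75.5 and 99.95 CPM across IgG control replicates 1 to 4. Their part in the members' values was not tested. With both U libraries left out edgeR called 0 members, with 6 higher and 2 lower at an unadjusted p under 0.05. The share of all genes at that setting is not given here.

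**Figure D4:**
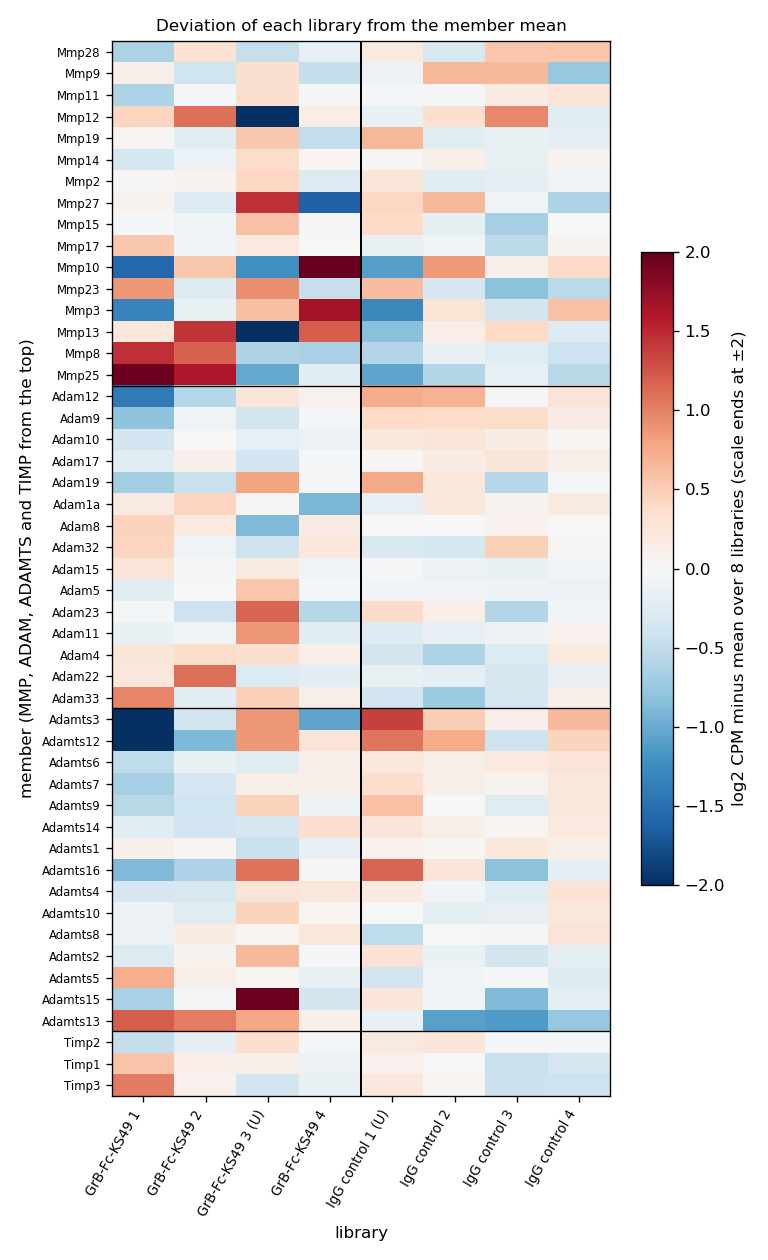
Log2 CPM of each library minus the mean over the 8 libraries (colour, ends at ±2) for the 49 tested members (rows, by family and fold change) in GrB-Fc-KS49 and IgG control libraries (columns). The U libraries stand out above the mean in rows such as Mmp19, Adam19, Adamts2 and Adamts16, and Adam9 and Adam10 are above the mean in all 4 controls.

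Other genes of the same pathway were taken from lists made for this family, and 0 of the 78 tested ones passed edgeR's adjusted p under 0.05. Their counts at an unadjusted p under 0.05 stand beside 17.3% higher and 17.8% lower of all genes. The genes given with values are those of smallest unadjusted p by edgeR in each list. A lack of overlap in them follows in part from that choice, and 25.7% of all genes did not overlap. In the plasminogen activation list 2 of 9 tested genes were higher and 2 lower at an unadjusted p under 0.05. Plat, the tissue plasminogen activator, was at 57.6, 86.9, 96.8 and 98.4 CPM across GrB-Fc-KS49 replicates 1 to 4, against 128, 101, 109.6 and 114 CPM across IgG control replicates 1 to 4, and all treated tumours were below all controls. S100a10, a cell-surface receptor for plasminogen, was at 787, 672, 664 and 623 CPM across GrB-Fc-KS49 replicates 1 to 4, against 573, 563, 587 and 555 CPM across IgG control replicates 1 to 4, with all treated tumours above all controls. Plgrkt, another plasminogen receptor, likewise had no overlap and a log2 fold change of 0.46 (SE 0.16, adjusted p = 0.0858) by edgeR.

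In the list of proteins that mature or control these proteases 2 of 16 tested genes were higher at an unadjusted p under 0.05 and 0 were lower. Bsg, or EMMPRIN, an inducer of MMP expression, was at 946, 793, 692 and 889 CPM across GrB-Fc-KS49 replicates 1 to 4, against 618, 678, 698 and 691 CPM across IgG control replicates 1 to 4, with GrB-Fc-KS49 replicate 3 inside the control range. Tspan33, a tetraspanin that escorts ADAM10 to the membrane, averaged 0.991 ± 0.657 CPM with GrB-Fc-KS49 and 0.274 ± 0.123 CPM with IgG (SD, n = 4 each), with the 2 groups apart and a log2 fold change of 1.85 (SE 0.54, adjusted p = 0.0659) by edgeR. Furin, the proprotein convertase that removes the propeptide of several members, averaged 213 ± 16.7 CPM with GrB-Fc-KS49 and 236 ± 15.4 CPM with IgG, with a log2 fold change of -0.15 (SE 0.08, adjusted p = 0.207). In the list of ADAMTS-like proteins, which resemble ADAMTS proteases without the catalytic domain, and their relatives 1 of 7 tested genes was lower and 0 were higher. That gene, Adamtsl3, was at 7.06, 16.02, 18.4 and 20.8 CPM across GrB-Fc-KS49 replicates 1 to 4, against 28.6, 29.3, 23.9 and 25.8 CPM across IgG control replicates 1 to 4, with all treated tumours below all controls. Adamtsl4 and Adamtsl2 had log2 fold changes of 0.34 and 0.66.

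Among shed ligands and receptors 2 of 19 tested genes were higher and 3 lower at an unadjusted p under 0.05. Met, the receptor of hepatocyte growth factor, averaged 169 ± 25.3 CPM with GrB-Fc-KS49 and 224 ± 16.9 CPM with IgG, Cd44, the hyaluronan receptor, 334 ± 41.8 CPM with GrB-Fc-KS49 and 419.7 ± 30.0 CPM with IgG, and Cx3cl1, a membrane-bound chemokine released by ADAM10 and ADAM17, 63.8 ± 13.3 CPM with GrB-Fc-KS49 and 45.2 ± 3.16 CPM with IgG (SD, n = 4 each). Their log2 fold changes were -0.41, -0.33 and 0.50, with adjusted p of 0.0634, 0.071 and 0.065 by edgeR. Among the 15 tested matrix substrates 2 were higher and 2 lower. Vcan, which encodes versican, a substrate of ADAMTS proteases, was at 111, 141, 204 and 179 CPM across GrB-Fc-KS49 replicates 1 to 4, against 288, 256, 219 and 209 CPM across IgG control replicates 1 to 4, with no overlap between the groups. Fn1, which encodes fibronectin, and Eln, which encodes elastin, a substrate of MMP12, had log2 fold changes of -0.64 and 0.95. Among 12 AP-1 and ETS transcription factors 1 was higher and 2 lower. In the treated mean 2 of 12 were higher, against 53.2% of all genes, and their median log2 fold change was -0.09. Fosl2 averaged 260.2 ± 21.8 CPM with GrB-Fc-KS49 and 332 ± 12.6 CPM with IgG, Ets1 99.0 ± 15.2 CPM with GrB-Fc-KS49 and 129 ± 6.05 CPM with IgG and Jund 163 ± 39.9 CPM with GrB-Fc-KS49 and 113 ± 4.09 CPM with IgG (SD, n = 4 each), and none of the 3 overlapped between the groups.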

How the data were processed

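RNA from 8 tumours was enriched for poly(A) and made into libraries with a stranded dUTP kit, per the labels' protocols. The submitters' processing notes name bcl2fastq 2.19.1.403, STAR and GRCm39. No source used here gives the quantifier, its annotation or its use of strand. The authors deposited estimated counts, of which 46.0% to 47.8% per library are whole (within 1e-06), and CPM made from them after adding 0.0001. The 26709 genes all have a total of at least 10.

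Estimated counts were rounded, genes kept by filterByExpr (19718) and tested with edgeR 4.0.16 (TMM, robust quasi-likelihood, Benjamini-Hochberg over all genes, R 4.3.3). The SE is the log2 fold change over the square root of F. Alternatives used limma 3.58.1, DESeq2 1.42.0 and mgcv 1.9.3. Lengths are those of the longest transcript in GENCODE M21. In data simulated for this comparison over 19718 genes, 200 were changed, all drawn from genes with a mean above 1 CPM. Of the 2-fold changes 70% were recovered and of the 4-fold changes 91%, and 6.4% of calls were false. In the real data 35.1% of genes had an unadjusted p under 0.05 by edgeR. These shares need not hold there, nor for members below 1 CPM. The biological coefficient of variation was 27.8%, against which counting error is small except in the lowest members. Total counts were 74.0 to 82.6 in units of 1000000. Of the 62 members 26 overlap another gene, 22 on the opposite strand.

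The members and lists were chosen with earlier results of these data known. Values by library are given for TIMPs, 8 well-known members, and in each protease family the 6 smallest p and the 3 highest levels per kilobase. Other genes shown that way were chosen after their values were seen. The suffix term was tested after the data were seen.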

Additional observations from a re-analysis of the deposited data

Results flagged for a closer look

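In 2 of 58 groups of 4 libraries, those of 29 members in each treatment group, 1 library lay far from the other 3 by Dixon's ratio at its 95% critical value, and chance gives about 1 in 20. Adam8 was highest in IgG control replicate 3, at 154.708 CPM, against 145.159 to 146.44 CPM in the other controls (ratio 0.866). Adam9 was lowest in IgG control replicate 4, at 192.624 CPM, against 220.548 to 226.164 CPM in the other controls (ratio 0.833).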

How the results depend on the processing

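No paired analysis was possible because the replicate numbers only name libraries. By edgeR with adjusted p under 0.05, 0 genes and 0 members were called, and 6915 genes and 7 members had an unadjusted p under 0.05. DESeq2 called 4660 genes and 5 members, limma-voom 1 gene and 0 members, limma-voom with sample weights 1291 and 2, and edgeR at an adjusted p under 0.10 called 4952 and 4. With 1 library left out the counts were 0 to 3447 genes and 0 to 4 members, the highest without GrB-Fc-KS49 replicate 4. Members higher at an unadjusted p under 0.05 numbered 3, but 7 under upper quartile scaling, 5 by DESeq2, 1 by limma-voom with sample weights, 6 without both U libraries and 1 to 7 with 1 library left out. Members lower numbered 4, but 2 without both U libraries, 7 with the suffix as a covariate and 2 to 8 with 1 library left out. With all libraries edgeR had 17.3% of all genes higher and 17.8% lower at that p. Shares of all genes for the alternatives are not given here. Members whose groups do not overlap numbered 4 (8.16%, against 25.7% of all genes), and 4 to 9 with 1 library left out. They numbered 3 (Adam9, Adam10 and Adamts13) under upper quartile scaling and on log2(CPM + 1) or log2(CPM + 0.25), 3 (Adam9, Adam10 and Adam15) with a filter at CPM 1, which drops Adamts13, and 3 (Adam9, Adam22 and Adamts13) with the length and GC trends removed. With no low-count filter they were Adam9, Adam10, Adamts13 and Adamts18.

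There were 584 alternatives over the 28 tested members chosen by rule for values by library. Of these, 547 kept direction and side of the threshold, 12 gained a call and 25 reversed, in 7 members. None of these 7 was called. As edgeR with all libraries called 0 members, none could lose a call, and keeping the side meant staying uncalled. Adam8 (log2 fold change 0.05) was -0.033 by limma-voom, -0.077 with sample weights, -0.00947 on log2(CPM + 1), -0.00999 on log2(CPM + 0.25), -0.023 with the suffix as a covariate and -0.072 with the length and GC trends removed. Mmp12 (-0.07) was 0.17 without both U libraries. Mmp14 (-0.01) was 0.047 under upper quartile scaling, 0.022 with a filter at CPM 1 and 0.00636 by limma-voom with sample weights, and Mmp2 (0.13) was -0.00211 with these trends removed. With 1 library left out the ranges were -0.11 to 0.26 for Adam8, -0.18 to 0.033 for Adamts4, -0.51 to 0.29 for Mmp12, -0.16 to 0.090 for Mmp14, -0.00445 to 0.26 for Mmp2, -0.056 to 0.93 for Mmp3 and -0.015 to 0.54 for Timp3. The cause was not tested. Depth limits the lowest members, of which Adamts13 had at most 62 counts.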

Other observations

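Fosl1, an AP-1 subunit chosen after its values were seen, was at 80.8, 59.6, 45.2 and 111 CPM across GrB-Fc-KS49 replicates 1 to 4, against 81.5, 95.0, 95.5 and 83.5 CPM across IgG control replicates 1 to 4. GrB-Fc-KS49 replicate 4, the highest library for Mmp3 and Mmp10, was also the highest for Fosl1, and replicate 3, the lowest for Mmp12 and Mmp13, was the lowest. Replicate 3 was however the second highest for Mmp3, and Fosl1 overlapped between the groups. The AP-1 genes Jun and Fos were highest elsewhere, Jun in IgG control replicate 1 (122 CPM) and Fos in GrB-Fc-KS49 replicate 1 (29.3 CPM). Both were lowest in GrB-Fc-KS49 replicate 3, at 77.2 and 12.9 CPM. The part of these genes in the MMP values was not tested. Among the ADAMTS proteases GrB-Fc-KS49 replicate 1 was the lowest treated library in 10 of 15 tested genes (66.7%), against 32.8% of all genes, and IgG control replicate 3 the lowest control in 10 of 15 (66.7%), against 25% of all genes. Dpt, a fibroblast gene chosen after its values were seen, was highest in both U libraries, at 21.8, 14.2, 34.5 and 6.47 CPM across GrB-Fc-KS49 replicates 1 to 4, against 24.4, 6.87, 6.32 and 8.98 CPM across IgG control replicates 1 to 4. The sum of the 10 fibroblast markers, of which Dpt is 1, did not follow it among treated tumours. That sum was 1301 CPM in GrB-Fc-KS49 replicate 1 and 503 CPM in the treated U library.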
